A study of Mus musculus with 24 samples.

Results

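The genes of the mouse major histocompatibility complex (MHC) and of antigen presentation were followed in kidney RNA and in 2 clonal lymphoid lines from crosses of the same 2 strains. Members were all genes whose symbol starts with H2- on chromosome 17 between 33 and 38 Mb, of which there were 44, and 10 genes added by name, B2m, Tap1, Tap2, Tapbp, Psmb8, Psmb9, Psmb10, Cd74, Ciita and Nlrc5. They make 54 of the 37315 genes in the count tables. For each gene the tables hold the RNA-seq reads that overlapped a single nucleotide polymorphism (SNP) between the parental genomes, split into counts from the 129S1 genome, the column the study calls maternal, and counts from the Cast/Ei genome. The sum of both columns served as abundance, and allelic imbalance (AI) was the 129S1 count divided by that sum, so that 0.5 means equal counts from the alleles.

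All kidney libraries were made from aliquots of 1 total RNA preparation, taken from the left kidney of 1 adult female 129S1/SvImJ x CAST/EiJ F1 mouse. Experiment 1 held 6 libraries made with the NEBNext poly-A kit from 100 ng of RNA, Experiment 2 held 6 libraries made with the SMARTseq v4 kit from 10 ng, and Experiment 3 held 6 libraries made with the SMARTseq v4 kit from 0.1 ng. Abl.1 and Abl.2 are Abelson-immortalised B cell lines of the same F1 background, each grown from 1 clone in RPMI medium with serum and supplements. Each had 2 libraries made with the SMARTseq v4 kit from 10 ng. The Abl.2 libraries were sequenced a second time, and that second run was used only as a repeat of the same libraries. The labels give no drug to any sample, which they call control, and mark every sample as female. All replicates are libraries of 1 RNA source, so that p-values measure the spread between library preparations and not between animals or cultures. Clones and kidney also differ in RNA source, sequencing machine and read length (paired reads of 150 bases against single reads of 75 bases), which cannot be told apart from the difference in tissue.

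MHC class I molecules are made of a polymorphic heavy chain and the shared light chain beta-2 microglobulin, and show peptides from inside the cell to cytotoxic T cells. The peptides are cut by the proteasome, whose catalytic subunits can be exchanged for the immunoproteasome subunits, and are carried into the endoplasmic reticulum by the TAP transporter. MHC class II molecules pair an alpha with a beta chain, show peptides from endocytosed material to helper T cells, and are characteristic of B cells, dendritic cells and macrophages. In 129 mice, which carry a b-type MHC haplotype, the E alpha chain is not expressed.

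Promoters of 5 members are shown because the results turn on their genes: the class I genes H2-K1 and H2-D1, higher in both clones than in kidney, H2-Q6, lower in Abl.1 and higher in Abl.2, and the class II genes H2-Aa and H2-Eb1, lower in both. Each line gives the 200 bases before the RefSeq transcript start in GRCm38.p6, in the direction of the gene. The intervals are chr17:34000334-34000533 on the minus strand for H2-K1, chr17:35262894-35263093 on the plus strand for H2-D1, chr17:35424650-35424849 on the plus strand for H2-Q6, chr17:34287824-34288023 on the minus strand for H2-Aa and chr17:34305667-34305866 on the plus strand for H2-Eb1. Capitals mark matches on either strand to the NF-kB letters GGGATTCCC, to GAANNGAAA, which is part of the interferon-stimulated response element, to TGACGTCA (X2 box), to GCAACNGAT (X1 box) and to ATTGG (Y box), none of which overlap each other here.
H2-K1: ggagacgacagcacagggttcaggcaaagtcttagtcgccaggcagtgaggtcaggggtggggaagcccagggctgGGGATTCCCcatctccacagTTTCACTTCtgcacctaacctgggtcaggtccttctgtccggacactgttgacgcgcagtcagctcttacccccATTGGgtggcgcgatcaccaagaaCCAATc
H2-D1: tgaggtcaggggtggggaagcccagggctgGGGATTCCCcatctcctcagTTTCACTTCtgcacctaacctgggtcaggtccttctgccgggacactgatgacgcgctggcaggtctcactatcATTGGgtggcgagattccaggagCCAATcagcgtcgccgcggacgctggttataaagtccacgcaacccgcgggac
H2-Q6: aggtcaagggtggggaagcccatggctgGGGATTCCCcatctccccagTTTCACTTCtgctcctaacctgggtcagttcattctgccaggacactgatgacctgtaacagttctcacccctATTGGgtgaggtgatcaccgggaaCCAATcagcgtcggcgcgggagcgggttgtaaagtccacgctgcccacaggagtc
H2-Aa: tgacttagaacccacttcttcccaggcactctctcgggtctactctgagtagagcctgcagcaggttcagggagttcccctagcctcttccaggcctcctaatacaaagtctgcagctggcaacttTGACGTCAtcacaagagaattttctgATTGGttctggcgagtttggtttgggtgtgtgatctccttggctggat
H2-Eb1: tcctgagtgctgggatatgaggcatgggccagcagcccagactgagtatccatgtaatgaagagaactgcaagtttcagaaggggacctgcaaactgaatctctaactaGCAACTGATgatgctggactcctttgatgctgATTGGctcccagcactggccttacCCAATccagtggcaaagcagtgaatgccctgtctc
The NF-kB letters stand within a short distance of the interferon-response letters in all 3 class I promoters shown. Of the 38 members with a RefSeq promoter, 4 held the NF-kB letters in the 250 bases before the start (H2-K1, H2-D1, H2-Q6 and H2-Q7), against 0.301% of 32851 promoter windows of that length. The interferon-response letters were found in 8 of 38 members, against 6.31% of all windows. The X1 letters were found in 2 members, the class II genes H2-Eb1 and H2-Eb2, and in 0.35% of all windows, the X2 letters in H2-Aa and in 1.55%, and the short Y box in 33 members and in 33.8%. These matches describe letters in a window and not binding.

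Each kidney library held 6138693 to 6702351 allelic counts and each clone library 19213150 to 22410835, second run included. Members took 0.207 to 0.233% of the counts in Experiment 1, 0.428 to 0.441% in Experiment 2, 0.452 to 0.477% in Experiment 3, 0.907 to 0.960% in Abl.1 and 1.21 to 1.23% in Abl.2. The AI of a member was analysed where its group held 50 or more pooled counts, which 35 members reached in at least 1 group and 19 in none. Of those 19, 18 were class I genes of the Q, T and M series and 1 was the class II gene H2-Pb, and 14 had no count in any of the 24 libraries. Abundance was tested where any group of the fit held 50, so 2 groups could be compared that both held fewer. For Abl.1 against Experiment 2 this applied to the calls of H2-Q2 (3 against 28 counts) and H2-Q3 (34 against 4). Levels below are CPM, counts scaled to a common library total after edgeR's TMM scaling, and because they rest on SNPs they were compared between groups for a gene and never between genes. All 10 B lineage markers (Cd79a, Ebf1, Vpreb1 and others) were higher in both clones by edgeR's call, with summed levels of 7041 to 8648 CPM in Abl.1, 6364 to 6375 in Abl.2 and 49.5 to 70.3 in Experiment 2, and the 9 kidney markers had no count in Abl.1 and a summed level of 6.99 to 9.41 CPM in Abl.2. Of 12 leukocyte and macrophage markers, C1qa, C1qb, C1qc and Adgre1 had counts in kidney and none in either clone. Others on that list went the other way: of the 10 tested, edgeR called 5 higher and 3 lower in Abl.1, and 3 higher and 5 lower in Abl.2. The columns were read as strain alleles and not by parent. Father-expressed imprinted genes with 50 or more counts had AI of 0.982 to 1 in Experiment 2 (6 genes). In the clones their AI was 0.059 in Abl.1 (1 gene) and 0 to 0.127 in Abl.2 (2 genes). The parent that gave each strain's allele may thus differ between kidney and clones. For AI this cannot be told apart from the difference in tissue.

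Against kidney, 8 of 14 class I heavy chains were higher and 3 lower in Abl.1, and 12 were higher and none lower in Abl.2. Of the 6 genes for peptide supply and loading, 5 were higher in Abl.1 and all 6 in Abl.2. Of the 5 class II alpha and beta chains, 4 were lower in both clones, and H2-Eb2 was higher in Abl.2. Among the genes counted as heavy chains, the GENCODE vM21 annotation lists H2-K2 and H2-Q3 as pseudogenes and H2-Q5 as a polymorphic pseudogene. It also lists H2-Ea-ps, counted as a class II chain, as a polymorphic pseudogene. Called means an adjusted p below 0.05 by edgeR's two-sided quasi-likelihood test with Benjamini-Hochberg adjustment over all 14271 genes tested, and a change of at least 2-fold. In Abl.1 against Experiment 2, 16 of 35 members were called higher (45.7%) against 30.1% of all genes, and 9 were called lower (25.7%) against 39.2% of all genes. In Abl.2, 22 were called higher (62.9%, all genes 29.9%) and 7 lower (20%, all genes 40.1%). A member that entered through the group where it is high had to differ, so these shares are a description. The median log2 fold change of the 35 members was -0.06 in Abl.1 and 2.26 in Abl.2, beside -0.22 and -0.27 over all genes. Scaling by total counts alone put the median of all genes at 0.29 and 0.58 instead and turned the direction of no called member. In whole-tissue RNA such as the kidney's, fewer cells of a type and less RNA per cell cannot be told apart.

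The classical class I heavy chains, which present peptides on nearly all nucleated cells, were several-fold higher in both clones. H2-K1 (chr17:33996017-34000333) stood at 329, 342 and 356 CPM (lowest, median and highest of 6 libraries) in Experiment 2, at 1675 and 1696 CPM in Abl.1 and at 1883 and 1829 CPM in Abl.2. H2-D1 (chr17:35262730-35267499) stood at 230, 254 and 269 CPM in Experiment 2, at 1373 and 1363 CPM in Abl.1 and at 1212 and 1220 CPM in Abl.2. Every clone library lay above every kidney library for both genes. The H2-K1 difference was a log2 fold change of 2.22 ± 0.055 (SE) in Abl.1 (edgeR adjusted p = 5.02e-13) and 2.43 ± 0.055 in Abl.2 (edgeR adjusted p = 1.92e-13). For H2-D1 it was 2.36 ± 0.068 in Abl.1 (edgeR adjusted p = 2.17e-12) and 2.26 ± 0.068 in Abl.2 (edgeR adjusted p = 2.85e-12). Neither gene was called between the clones, where the log2 differences were 0.22 for H2-K1 and -0.09 for H2-D1. Together the 2 genes summed to 559 to 623 CPM in Experiment 2, 3047 to 3058 in Abl.1 and 3049 to 3094 in Abl.2.

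**Figure D1:**
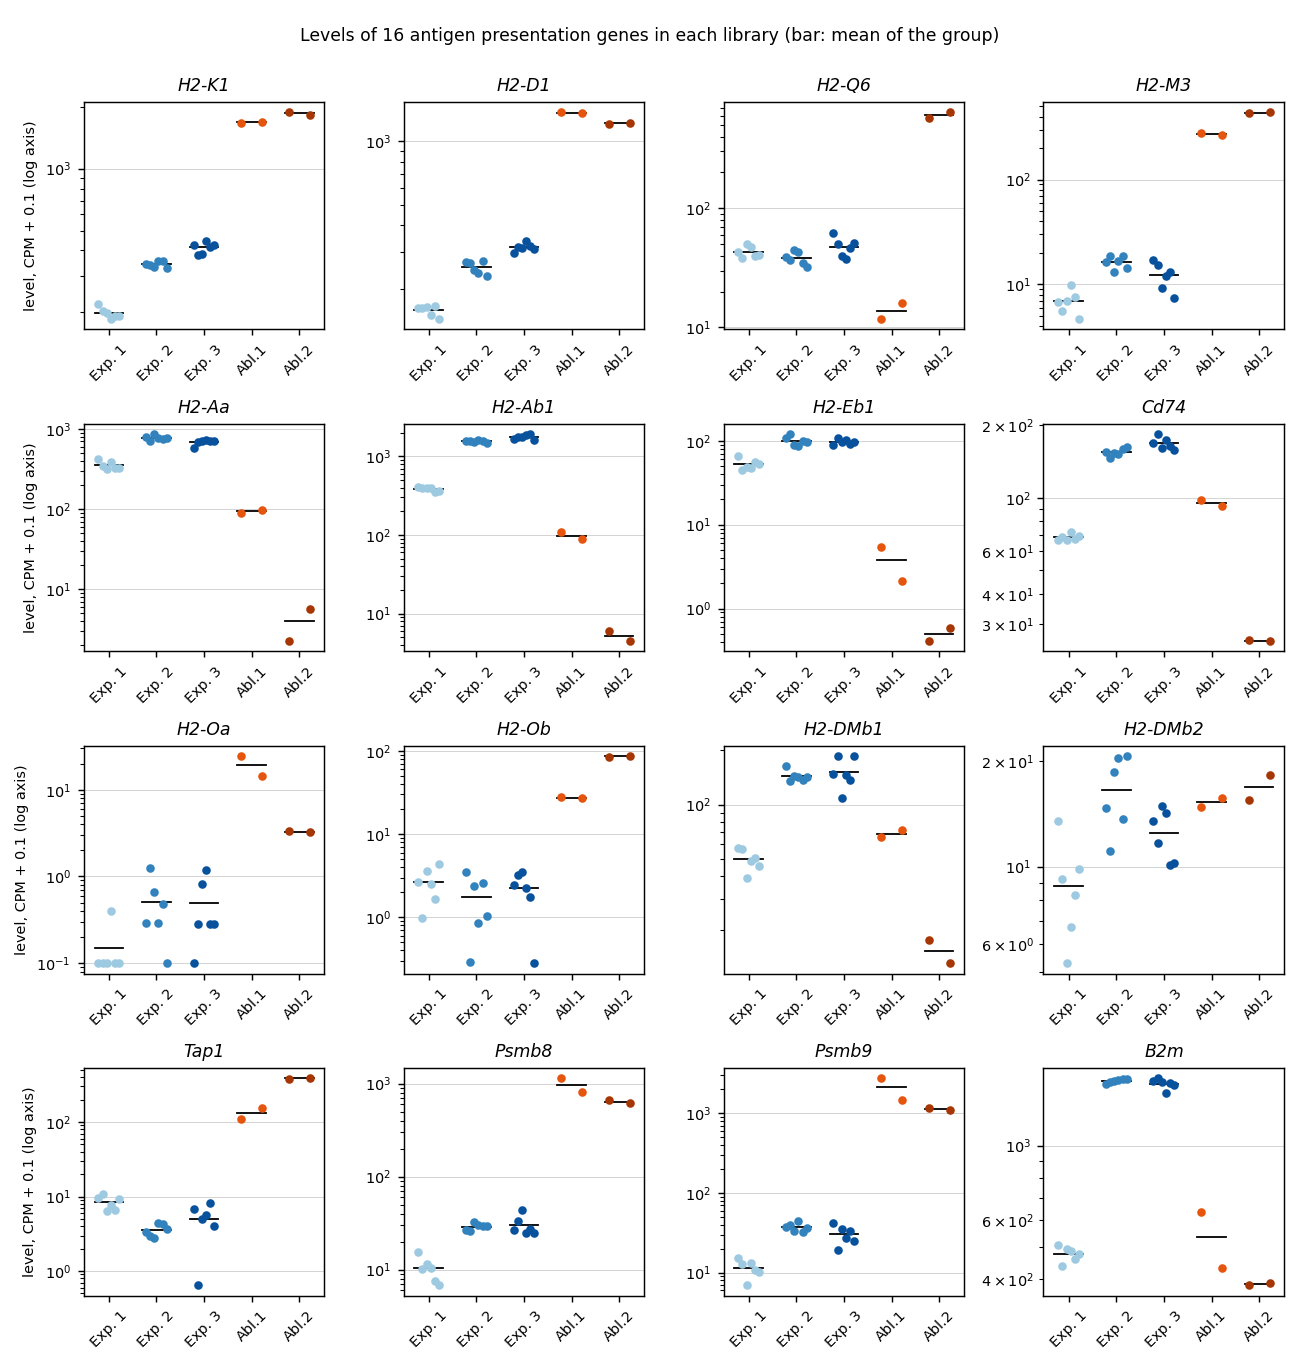
Level of 16 members in each library (CPM + 0.1, log axis; points are libraries, bars are group means; Experiments 1 to 3 are kidney, 6 libraries each, and Abl.1 and Abl.2 are clones, 2 libraries each). H2-K1, H2-D1, H2-M3, Tap1, Psmb8 and Psmb9 lie higher in all clone libraries than in all kidney libraries, H2-Aa, H2-Ab1 and H2-Eb1 lie lower, and H2-Q6 is the gene that lies below kidney in Abl.1 and above it in Abl.2.

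Among the other class I heavy chains, which include the Qa and T region molecules, 6 of 12 were called higher and 3 lower in Abl.1, and 10 of 12 higher and none lower in Abl.2. The widest rise in both clones was that of H2-M3 (chr17:37270220-37274484), which presents N-formylated peptides. Its level was 13.1, 16.5 and 18.5 CPM in Experiment 2, 279 and 266 CPM in Abl.1 and 433 and 440 CPM in Abl.2, with no overlap between groups, and edgeR gave log2 fold changes of 3.99 ± 0.10 (adjusted p = 6.16e-13) and 4.75 ± 0.10 (adjusted p = 1.17e-13). H2-Q4 rose from a median of 41.7 CPM in Experiment 2 to 92.1 and 124 CPM in Abl.1 and 231 and 242 CPM in Abl.2. H2-Q5 rose from a median of 29.9 CPM to 85.6 and 102 CPM in Abl.1 and 391 and 361 CPM in Abl.2. For both, as for H2-K2 and H2-Q10, the order was the same, with kidney lowest, Abl.1 between and Abl.2 highest, and each step was called by edgeR, although without Abl.1 replicate 1 the step between the clones was 0.97 for H2-Q4 and 0.94 for H2-Q10 on the log2 scale, under 2-fold. H2-K2 went from a median of 10.58 CPM to 25.5 and 29.2 in Abl.1 and 74.2 and 77.0 in Abl.2. H2-Q10, which encodes a secreted class I molecule known from liver, had low levels, with a median of 2.37 CPM in Experiment 2 and 14.9 CPM in both Abl.2 libraries.

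H2-Q6 (chr17:35424850-35430055), one of the Qa-2 genes, separated the clones. It stood at 32.3, 37.9 and 44.3 CPM in Experiment 2, at 11.7 and 15.8 CPM in Abl.1 and at 577 and 641 CPM in Abl.2. Both Abl.1 libraries lay below all kidney libraries and both Abl.2 libraries above them. The log2 fold change against Experiment 2 was -1.55 ± 0.15 in Abl.1 (edgeR adjusted p = 5.73e-07) and 3.98 ± 0.12 in Abl.2 (edgeR adjusted p = 3.16e-12), and Abl.2 exceeded Abl.1 by 5.53 ± 0.19 (edgeR adjusted p = 1.29e-10). H2-T24 and H2-Q2 were called lower in Abl.1 as well, with log2 fold changes of -3.06 and -3.72, but not in Abl.2, where they were 0.10 and -0.12. Against other kidney groups these calls were not kept throughout: the Abl.1 value of H2-Q2 was -1.74 against Experiment 1, that of H2-T24 -2.37 against Experiment 3, neither called, and the Abl.2 value of H2-T24 was -1.56 against Experiment 1. H2-Q2 had 28 counts in Experiment 2, 3 in Abl.1 and 54 in Abl.2. Abl.2 against Abl.1 gave a ratio of 12.8 with a counting interval of 4.16 to 64.2. H2-T22, H2-T23 and H2-Q1 were called in Abl.2 only, at log2 fold changes of 1.36, 2.497 and 1.38, and each also differed between the clones by edgeR's call (1.43, 2.80 and 1.49). For H2-Q1 the last of these was 1.15 and not called without Abl.2 replicate 1. H2-Q3, with 4 counts in Experiment 2, was called higher in both clones, at 2.31 and 3.25, but in Abl.1 the call was lost without Abl.1 replicate 2 (1.31) and without any one of 5 kidney libraries, Experiment 2 replicates 2 to 6 (2.05).

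These heavy chain genes are near copies of each other, so that reads can be split among them or lost. In 75-base windows along GENCODE vM21 transcripts, 21.1% of the windows of H2-Q6 occurred exactly in another gene, 20.7% of H2-Q4, 21.2% of H2-Q5, 39.97% of H2-T22 and 12.5% of H2-Q10. The share was 3.10% for H2-K1, 5.56% for H2-D1, 4.99% for H2-K2 and 0 for H2-M3. In 150-base windows, the read length of the clones, the shares were 5.99% for H2-Q6, 9.87% for H2-Q4, 3.86% for H2-Q5, 22.3% for H2-T22 and 3.43% for H2-Q10, so sharing differs between kidney and clones. These shares count exact matches between transcripts of the reference annotation and not of the parental strains. They therefore set no limit on how uncertain the levels and AI of the Q and T genes are. The part that read sharing plays in these levels and AI was not tested.

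The light chain B2m did not follow the heavy chains. It stood at 1528, 1563 and 1582 CPM in Experiment 2, at 634 and 432 CPM in Abl.1 and at 383 and 388 CPM in Abl.2, below kidney in every clone library (edgeR log2 fold changes -1.64 ± 0.11, adjusted p = 8.7e-09, and -2.02 ± 0.11, adjusted p = 1.18e-09). This direction depended on the kidney group used: in Experiment 1 the level was 438, 480 and 504 CPM, and against that group the log2 differences were 0.14 in Abl.1 and -0.25 in Abl.2, neither called. The level of B2m also depended on the sequencing run, since the same Abl.2 libraries gave 770 and 783 CPM in the second run. The ratio of pooled B2m counts between the runs, 2.02, was the highest of the 2287 genes with 5000 or more counts, whose median ratio was 1.03, while the 12 other members in that set lay between 0.998 and 1.16. With the second run in place of the first, B2m was still lower in Abl.2 than in Experiment 2, by 1.02 on the log2 scale. Against Abl.1, the log2 difference of Abl.2 was -0.39 with the first run and 0.61 with the second, both under 2-fold.

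Genes for peptide supply and loading rose in both clones, 5 of 6 in Abl.1 and 6 of 6 in Abl.2. Psmb8 and Psmb9, catalytic subunits of the immunoproteasome, stood at medians of 29.4 and 36.9 CPM in Experiment 2. In Abl.1 they reached 1136 and 805 CPM for Psmb8 and 2753 and 1488 CPM for Psmb9, and in Abl.2 658 and 622 CPM and 1167 and 1092 CPM. No kidney library came near these values, and the log2 fold changes were 4.98 ± 0.10 and 4.46 ± 0.10 for Psmb8 (edgeR adjusted p = 1.2e-13 and 2.44e-13) and 5.75 ± 0.16 and 4.92 ± 0.16 for Psmb9 (edgeR adjusted p = 1.76e-12 and 6.01e-12). Psmb10, the remaining immunoproteasome subunit, rose from a median of 11.3 CPM to 165 and 88.0 CPM in Abl.1 and 50 and 50.9 CPM in Abl.2. In all 3 subunits Abl.1 replicate 1 was the highest library. Psmb10 alone of them was called lower in Abl.2 than in Abl.1 (log2 difference -1.24 ± 0.21, edgeR adjusted p = 0.000301), and without Abl.1 replicate 1 the Psmb10 difference was -0.76, under 2-fold.

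Tap1 and Tap2 encode the subunits of the peptide transporter, and both were low in kidney. Tap1 rose from 2.65, 3.41 and 4.33 CPM in Experiment 2 to 110 and 153 CPM in Abl.1 and 383 and 385 CPM in Abl.2, with log2 fold changes of 5.17 ± 0.15 (edgeR adjusted p = 2.98e-12) and 6.78 ± 0.15 (edgeR adjusted p = 1.82e-13). Tap2 rose from 13.4, 17.02 and 19.3 CPM to 350 and 380 CPM in Abl.1 and 238 and 244 CPM in Abl.2. Thus Tap1 was higher in Abl.2 than in Abl.1 (1.61, called) while Tap2 lay 0.52 lower, which passed the p threshold but not 2-fold. Tapbp, or tapasin, which bridges TAP and the heavy chain, was closest to kidney, at 49.9, 53.1 and 58.3 CPM in Experiment 2, 49.2 and 76.9 CPM in Abl.1 and 113 and 127 CPM in Abl.2. Its log2 fold change of 1.16 ± 0.14 in Abl.2 was called (edgeR adjusted p = 3.67e-06), but with kidney Experiment 1 or 3 in place of Experiment 2 the value was 0.84 or 0.59 and the call was lost.

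The transactivators of the pathway differed. Nlrc5, the transactivator of class I genes, had 0.188, 0.473 and 2.84 CPM in Experiment 2, 17.6 and 17.9 CPM in Abl.1 and 72.2 and 61.3 CPM in Abl.2. The groups did not overlap, and the log2 fold changes were 4.04 ± 0.41 (edgeR adjusted p = 8.07e-07) and 6.03 ± 0.38 (edgeR adjusted p = 4.77e-09). Ciita, the transactivator of class II genes, was scarce in all groups, with 48 pooled counts in Experiment 2, 64 in Abl.1 and 56 in Abl.2, and was not called in either clone (log2 fold changes -0.19 ± 0.44 and -0.84 ± 0.45, edgeR adjusted p = 0.688 and 0.0999).

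Class II chains fell in both clones and further in Abl.2. H2-Ab1 (chr17:34263209-34269418), the A beta chain, stood at 1490, 1553 and 1613 CPM in Experiment 2, at 107 and 88.4 CPM in Abl.1 and at 5.83 and 4.36 CPM in Abl.2. H2-Aa (chr17:34282744-34287827), its alpha partner, stood at 710, 774 and 858 CPM in Experiment 2, at 89.9 and 97.7 CPM in Abl.1 and at 2.16 and 5.59 CPM in Abl.2. The groups were fully apart for both chains, in the order Experiment 2, Abl.1, Abl.2. H2-Ab1 was 16.8-fold lower in Abl.1 and 305-fold lower in Abl.2 than in Experiment 2 (edgeR log2 fold changes -4.07 ± 0.12, adjusted p = 1.8e-12, and -8.25 ± 0.15, adjusted p = 3.15e-14). H2-Aa was 8.74-fold and 200-fold lower (edgeR log2 fold changes -3.13 ± 0.23, adjusted p = 2.33e-08, and -7.64 ± 0.30, adjusted p = 3.94e-11). Abl.2 was also called lower than Abl.1 for both, by 18.1-fold for H2-Ab1 and 22.9-fold for H2-Aa.

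H2-Eb1 (chr17:34305877-34316199), the E beta chain, had 85.5, 98.6 and 120 CPM in Experiment 2, 5.35 and 2.04 CPM in Abl.1 and 0.309 and 0.478 CPM in Abl.2, and was called lower in both clones (log2 fold changes -4.88 and -7.96). H2-Ea-ps, the E alpha gene, went the same way, from a median of 28.9 CPM to 2.00 and 0.853 CPM in Abl.1 and 0.154 and 0.179 CPM in Abl.2. The exception was H2-Eb2, a second E beta gene, with 2 counts in Experiment 2, none in Abl.1 and 63 in Abl.2 (1.17 and 0.747 CPM). That is 15.2-fold above Experiment 2 with a counting interval of 4.03 to 128, and at least 15.0-fold above Abl.1, taking 3 counts over the group as the floor. The summed level of the class II chains was 2394 to 2505 CPM in Experiment 2, 189 to 205 CPM in Abl.1 and 9.69 to 11.4 CPM in Abl.2. None of the windows of the 5 measured chains was shared with another gene. Of the 12 leukocyte and macrophage markers 10 were tested, and 5 were called higher and 3 lower in Abl.1, and 3 higher and 5 lower in Abl.2. Their summed levels were 240 to 278 CPM in Experiment 2, 314 to 335 CPM in Abl.1 (4 genes at 0) and 374 to 387 CPM in Abl.2 (6 genes at 0). Most of the clone sums came from Ptprc (medians 157 CPM in Abl.1, 178 in Abl.2, 5.47 in Experiment 2) and Lyz2 (118.5, 200 and 68.9). The sums therefore do not stand for the list as a whole. The complement genes C1qa, C1qb and C1qc had no count in either clone, and the part of these cells in the class II levels of the kidney was not tested.

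The editors of class II, which guide peptide loading, were split. H2-Oa and H2-Ob form H2-O, the inhibitor of the peptide exchanger H2-M in B cells, and both rose. H2-Ob went from 0.190, 1.61 and 3.42 CPM in Experiment 2 to 27.8 and 26.7 CPM in Abl.1 and 85.4 and 86.1 CPM in Abl.2. H2-Oa went from 0, 0.284 and 1.14 CPM to 24.2 and 14.4 CPM in Abl.1 but only 3.24 and 3.14 CPM in Abl.2. Hence the partners went opposite ways between the clones. H2-Ob was 3.32-fold higher and H2-Oa 5.68-fold lower in Abl.2 than in Abl.1, each called (edgeR adjusted p = 0.00038 and 0.000156). With DESeq2 the H2-Ob value between the clones was 1.69 and not called (adjusted p = 0.0603).

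Of the H2-M genes, H2-DMb1 fell from 135, 143 and 164 CPM in Experiment 2 to 65.6 and 72.0 CPM in Abl.1 and 17.4 and 13.0 CPM in Abl.2, but against kidney Experiment 1 its log2 difference in Abl.1 was 0.45. H2-DMb2 was not called in either clone (log2 fold changes -0.20 and 0.02), and neither was H2-DMa, whose log2 fold changes of -0.56 and -0.79 passed the p threshold but stayed under 2-fold. Against Experiment 1, H2-DMa was 1.12 higher in Abl.1 and called. H2-DMb1 and H2-DMb2 share 15.8% and 16.2% of their 75-base windows with other genes. Cd74, the invariant chain that blocks the class II groove until the endosome, had 146, 154 and 162 CPM in Experiment 2, 98 and 92.7 CPM in Abl.1 and 25.6 and 25.3 CPM in Abl.2. It was called lower in Abl.2 (log2 fold change -2.61 ± 0.089, edgeR adjusted p = 1.02e-11), and in Abl.1 the value of -0.78 ± 0.079 did not reach 2-fold. H2-Ke6, which lies in the interval and carries an H2- symbol but encodes a hydroxysteroid dehydrogenase, was not called, at log2 fold changes of -0.06 and 0.01 against Experiment 2, though it was 1.14 against Experiment 1 in Abl.1.

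**Figure D2:**
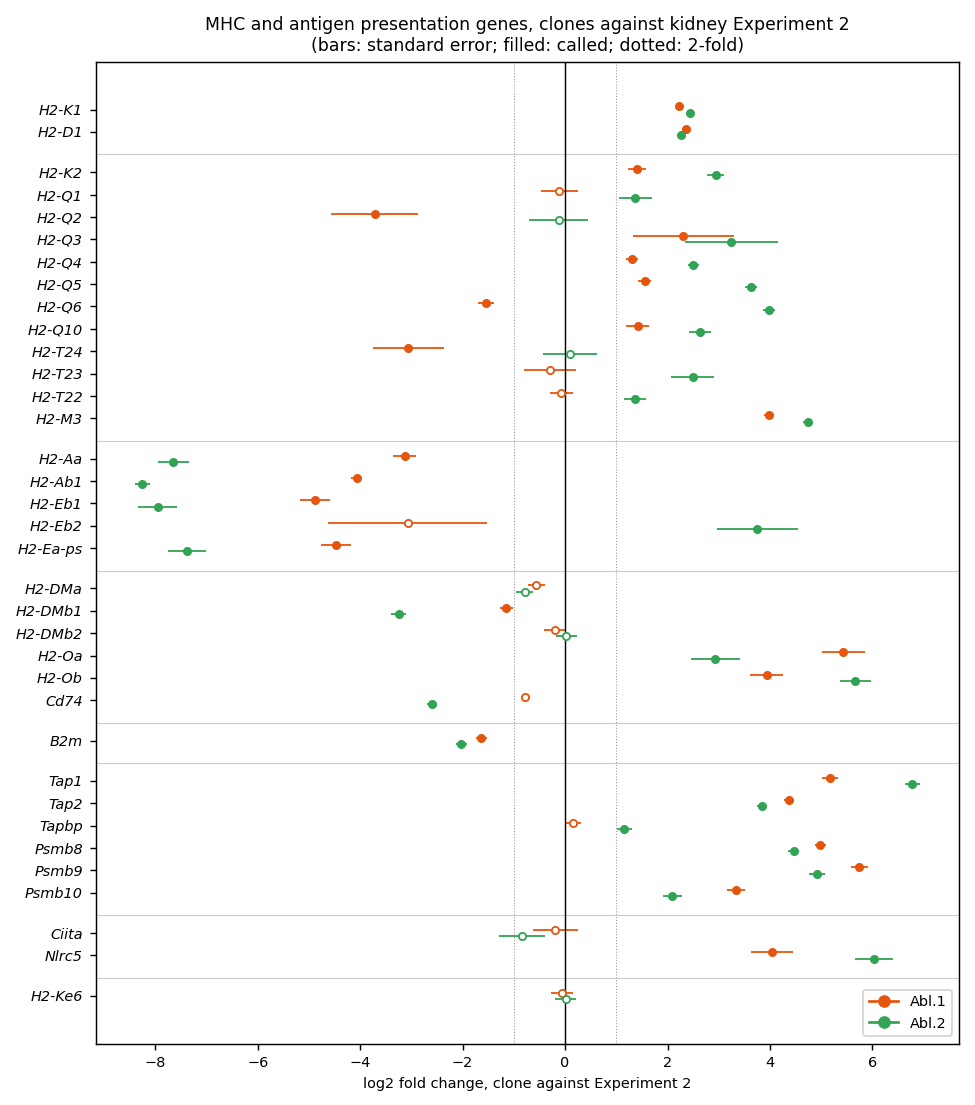
log2 fold change of the 35 measured members in Abl.1 (orange) and Abl.2 (green) against kidney Experiment 2, grouped by role from classical class I at the top to H2-Ke6 at the bottom (bars are standard errors, filled points are called, dotted lines mark 2-fold). Heavy chains and peptide supply genes lie mostly to the right and the class II chains to the left, at -3.13 to -4.88 for the 4 called in Abl.1 and -7.38 to -8.25 for the 4 called lower in Abl.2; the fitted points of H2-Eb2, with 0 counts in Abl.1, are not bounds.

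Other genes of the pathway, from lists that the membership rule did not use, gave a wider view, beside the shares of all genes called higher (30.1% in Abl.1, 29.9% in Abl.2) and lower (39.2% and 40.1%). Among 15 regulators of MHC transcription and interferon response, 8 were called higher and none lower in Abl.1, and 10 higher and none lower in Abl.2, including Irf4 (8.54 and 8.96), Irf8 (4.92 and 5.77), Irf1 (1.51 and 3.52) and Rfx5 (2.15 and 3.45, log2 fold changes in Abl.1 and Abl.2). Of the 6 standard proteasome and PA28 activator genes, 4 were called higher in Abl.1 and 2 in Abl.2, with Psme1 at 2.63 and 1.35. The 6 helpers of class I loading had no call in Abl.1 by edgeR, and in Abl.2 2 were higher (Erap1 1.38, Tapbpl 1.88) and 4 lower (Calr -2.88, Pdia3 -3.28 among them). Of 6 tested genes for class II antigen processing, 5 were lower and 1 higher in Abl.1, and 4 lower and 1 higher in Abl.2, the one that rose being Ctss, the cathepsin that cleaves the invariant chain (2.22 and 2.81). Of 7 class I-like genes outside the MHC, 2 were higher and 4 lower in Abl.1, and 2 higher and 5 lower in Abl.2, with Cd1d1, which presents lipids, higher in both clones (3.12 and 1.88) and Fcgrt, the neonatal Fc receptor, lower.

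Directly compared, the clones differed in 22 of 35 members, 14 higher in Abl.2 (40%, all genes 16.4%) and 8 lower (22.9%, all genes 20.1%). The class I heavy chains carried most of the rise, with 10 of 14 higher and none lower. The 8 lower members were 4 of the 5 class II chains, 3 of the 6 class II editors and Psmb10, while the fifth chain, H2-Eb2, was higher. The summed level of all class I heavy chains was 3554 to 3611 CPM in Abl.1 and 4844 to 4849 CPM in Abl.2, and that of class II chains and editors 423 to 450 CPM and 167 to 168 CPM. Within the class I sum, the classical chains were level, at medians of 3053 and 3072 CPM, while the other heavy chains went from 506 to 553 CPM in Abl.1 to 1750 to 1800 CPM in Abl.2.

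Aliquots of 1 kidney RNA showed how far library preparation moved these genes. Experiments 1 and 2 differ in both the kit and the amount of RNA, which cannot be told apart. In Experiment 1 against Experiment 2, 3 of 30 members were called higher (10%, all genes 17.6%) and 12 lower (40%, all genes 20.0%). With scaling by total counts alone the split was 5 higher and 7 lower. That scaling put the median log2 difference of all genes at 0.39 instead of 0.05. Calls over all genes were not counted under it, so this split describes the setting and not the members. H2-Ab1 stood at 355, 394 and 409 CPM in Experiment 1, a log2 difference of -2.002 ± 0.037 from Experiment 2 (edgeR adjusted p = 1.74e-24). H2-Aa stood at 315, 339 and 428 CPM (-1.12 ± 0.066, edgeR adjusted p = 2.54e-14). No library of Experiment 1 overlapped those of Experiment 2 for either gene. B2m (-1.71), H2-Ea-ps (-1.45), Cd74 (-1.17), H2-DMa (-1.61), H2-DMb1 (-1.54), Psmb8 (-1.49), Psmb9 (-1.69), Psmb10 (-1.18), H2-M3 (-1.25) and H2-Ke6 (-1.13) were called lower too on the log2 scale. H2-T24 (1.73), Tap1 (1.26) and Ciita (1.21) were called higher, Ciita not without Experiment 1 replicate 2 (1.09) nor without Experiment 2 replicate 1, 3, 4 or 5 (1.08 to 1.21). H2-K1 and H2-D1 lay 0.78 and 0.67 lower on the log2 scale, below 2-fold.

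Lower input with the same kit left the members close to Experiment 2. In Experiment 3 against Experiment 2, no member was called of 30, against 0.677% of all genes called higher and 0.631% lower. By edgeR 10 members had an unadjusted p under 0.05 and 7 an adjusted p under 0.05, 6 of them higher and 1 lower, and DESeq2 called 0 at 2-fold. Those 7 were Tapbp (0.61), Tap2 (0.50), H2-D1 (0.33), H2-Q4 (0.30), H2-K1 (0.29), H2-Ab1 (0.20) and H2-Ea-ps (-0.45, all log2 differences). The differences between clones and kidney in the classical chains, Tap1, Psmb9 and the 4 class II chains called lower were wider than these differences between kidney groups for the same genes.

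**Figure D3:**
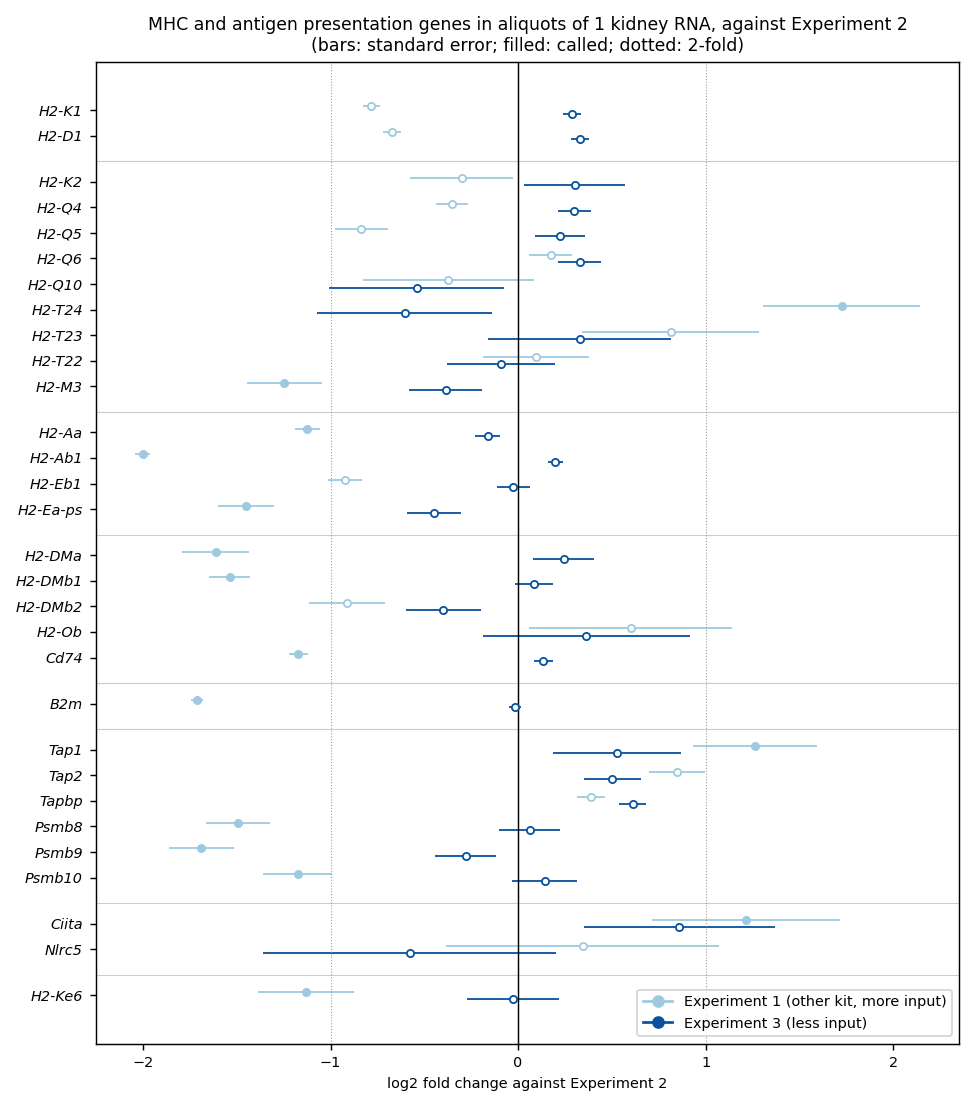
log2 fold change of the 30 members with enough kidney counts, in Experiment 1 (light blue, other kit and more input) and Experiment 3 (dark blue, less input) against Experiment 2 (bars are standard errors, filled points are called, dotted lines mark 2-fold). Experiment 1 has 15 called members, 12 of them to the left, with H2-Ab1 farthest at -2.002, and Experiment 3 has none.

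Allelic imbalance of the members was tested with proportional tests whose variance was widened by the quality correction constant (QCC) of each experiment, the factor by which replicate AI values exceed binomial noise. It was 1.85 in Experiment 1, 1.47 in Experiment 2, 2.59 in Experiment 3, 2.52 in Abl.1 and 2.17 in Abl.2. Experiment 1 replicate 1 stood apart from its group, with QCC of 2.02 to 2.14 in the 5 pairs that hold it and 1.68 to 1.80 in the other 10. Bias means that AI differed from 0.5 after Bonferroni correction over all genes of the group in a two-sided test. It was found in 11 of 30 members in Experiment 1 (all genes 16.6%; 9 without replicate 1), 12 of 27 in Experiment 2 (all genes 22.7%), 9 of 28 in Experiment 3 (all genes 12.0%), 14 of 30 in Abl.1 (all genes 23.8%) and 15 of 33 in Abl.2 (all genes 31.6%). With 1 library left out, 9 members were biased in Abl.1 without replicate 2, and 9 in Abl.2 without either library. Bias over all genes was not counted with a library left out.

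The bias sat in the H2- genes rather than in their neighbours by count. In Experiment 2, 11 of 19 H2- members were biased (57.9%) and 12 of 80 other genes in the same 33 to 38 Mb interval (15%), and the clones gave 11 of 20 and 13 of 23 for H2- members against 14 of 80 and 16 of 89 for the neighbours. The median distance of AI from 0.5 was 0.203 for H2- members in Experiment 2, 0.049 for the neighbours and 0.055 for all genes. No test of this difference was run. Direction was mixed, with 7 members toward 129S1 and 5 toward Cast/Ei in Experiment 2, 6 and 8 in Abl.1 and 8 and 7 in Abl.2.

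**Figure D4:**
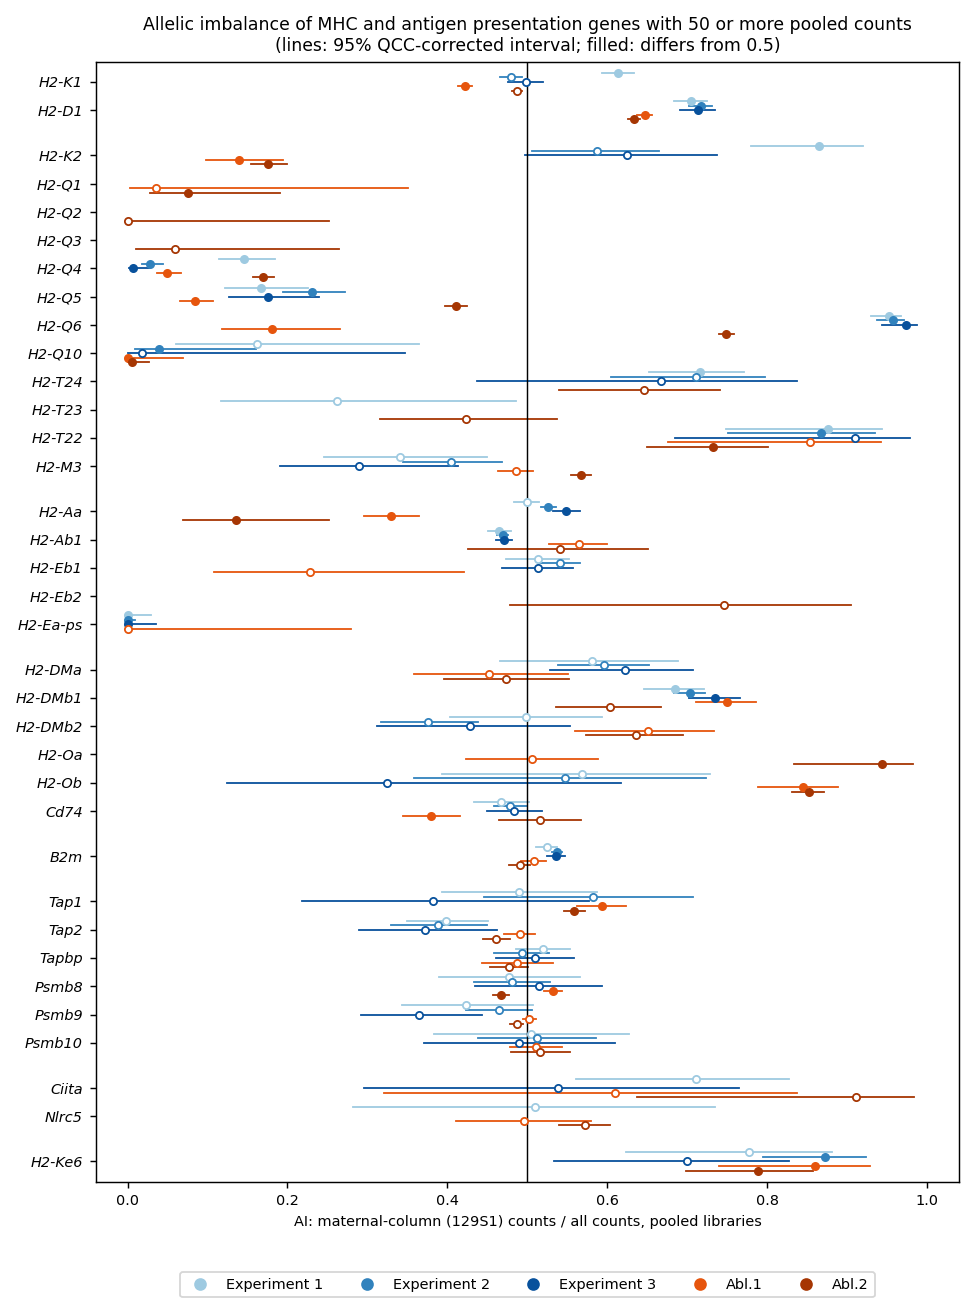
AI of each member with 50 or more pooled counts in a group (129S1 counts over all counts; lines are 95% intervals corrected by QCC, filled points differ from 0.5 by the Bonferroni-corrected test; blues are kidney, orange and brown the clones). H2-D1 lies right of 0.5 in every group, H2-Q4 and H2-Q10 lie far left, H2-Ea-ps lies at 0, and H2-Q6 moves from 0.957 in Experiment 2 to 0.180 in Abl.1 and 0.749 in Abl.2.

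A difference in AI between groups was called by the two-sided test of the pooled difference, with the same QCC and Bonferroni corrections, and each called difference below is given with its 95% interval. The classical heavy chains had unlike imbalance. H2-D1 gave more counts from 129S1 in every group, with AI of 0.680 to 0.761 (median 0.717) in the 6 libraries of Experiment 2, 0.645 and 0.648 in Abl.1 and 0.626 and 0.640 in Abl.2. Every clone library lay below every Experiment 2 library. The pooled difference from Experiment 2 was -0.070 in Abl.1 (95% interval -0.087 to -0.053) and -0.084 in Abl.2 (95% interval -0.100 to -0.067). H2-K1 was near balance in Experiment 2 (pooled AI 0.479, 95% interval 0.466 to 0.493) and leaned to Cast/Ei in Abl.1 (0.422, 0.413 to 0.431), a difference of -0.057 (95% interval -0.073 to -0.041). Abl.2 exceeded Abl.1 by 0.064 (95% interval 0.054 to 0.075). In Experiment 1 the same kidney RNA gave an H2-K1 AI of 0.613, which differed from Experiment 2 by 0.134 (95% interval 0.110 to 0.158), and against Experiment 1 the H2-K1 difference in Abl.2 was -0.127.

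H2-Q6 had the widest shift. Its AI was 0.940 to 0.977 across the libraries of Experiment 2, 0.193 and 0.173 in Abl.1 and 0.744 and 0.753 in Abl.2, with no overlap among the 3 groups. Experiments 1 and 3 gave pooled AI of 0.952 and 0.973. The differences were -0.777 for Abl.1 against Experiment 2 (95% interval -0.853 to -0.701), -0.209 for Abl.2 (95% interval -0.228 to -0.190) and 0.568 between the clones (95% interval 0.494 to 0.643). Read with its level, the 129S1 allele of H2-Q6 had a median of 36.1 CPM in Experiment 2, 2.498 CPM in Abl.1 and 456 CPM in Abl.2. The Cast/Ei allele had 1.71, 11.3 and 153 CPM in the same groups. Thus in Abl.1 the 129S1 allele was lower and the Cast/Ei allele higher than in kidney, and in Abl.2 both were higher.

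H2-Q4, H2-Q5 and H2-Q10 leaned to Cast/Ei in Experiment 2 and in both clones, and H2-K2 did so in the clones. H2-Q4 had pooled AI of 0.028 in Experiment 2 (95% interval 0.018 to 0.044), 0.049 in Abl.1 and 0.170 in Abl.2, and Abl.2 differed from both (0.142, 95% interval 0.123 to 0.160, and 0.120, 95% interval 0.101 to 0.140). H2-Q5 had 0.231, 0.084 and 0.411, and the clones moved opposite ways from kidney (-0.147, 95% interval -0.191 to -0.102, and 0.180, 95% interval 0.138 to 0.221), the first call being lost against Experiments 1 and 3 (-0.083 and -0.092). H2-K2 went from 0.587 in Experiment 2 (not biased) to 0.140 in Abl.1 and 0.176 in Abl.2 (differences -0.448, 95% interval -0.541 to -0.354, and -0.411, -0.495 to -0.328), although its 6 libraries in Experiment 2 ranged from 0.328 to 0.833. In the same kidney RNA H2-K2 was 0.864 in Experiment 1, biased to 129S1, and 0.6247 in Experiment 3, and the difference of 0.277 between Experiments 1 and 2 (95% interval 0.171 to 0.384) was not called. H2-Q10 had 3 of 76 counts from 129S1 in Experiment 2 (AI 0.039), 0 of 326 in Abl.1 and an AI of 0.005 in Abl.2. In Abl.1 its QCC-corrected 95% interval reached up to 0.070. H2-T22 leaned to 129S1, at 0.867 in Experiment 2 and 0.732 in Abl.2. H2-M3 read 0.405 in Experiment 2, 0.485 in Abl.1 and 0.568 in Abl.2, where it was biased to 129S1 and differed from both (0.163, 95% interval 0.099 to 0.226, and 0.082, 95% interval 0.057 to 0.107). These H2-M3 calls were lost against Experiments 1 and 3 (0.227 and 0.278), without Abl.2 replicate 2 (0.146), without Experiment 2 replicate 1, 2 or 3 (0.152, 0.136 and 0.143), and, between the clones, without Abl.1 replicate 2 (0.056). H2-Q4 also differed within the kidney RNA, by 0.118 between Experiments 1 and 2 (95% interval 0.080 to 0.155), and against Experiment 1 its difference was -0.096 in Abl.1 and 0.024 in Abl.2, the latter not called.

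Among the class II chains, H2-Ea-ps had no 129S1 count in any group, 0 of 427, 924 and 703 counts in Experiments 1 to 3. In Abl.1 it had 0 of 63. The QCC-corrected 95% intervals allowed an AI of up to 0.030, 0.009, 0.035 and 0.280 in these groups. H2-Ab1 was close to balance in kidney, with pooled AI of 0.465, 0.469 and 0.470 in Experiments 1 to 3, and was 0.564 in Abl.1, higher by 0.095 (95% interval 0.058 to 0.132), a call that needed both Abl.1 libraries (0.094 and 0.096 with 1 of them). Its partner H2-Aa went the other way. AI was 0.491 to 0.553 in the libraries of Experiment 2, 0.293 and 0.354 in Abl.1 and 0.043 and 0.171 in Abl.2, and the pooled differences from Experiment 2 were -0.197 (95% interval -0.233 to -0.161) and -0.390 (95% interval -0.481 to -0.298). By allele, the medians of H2-Aa were 409 CPM for 129S1 and 367 CPM for Cast/Ei in Experiment 2, 30.5 and 63.3 CPM in Abl.1 and 0.525 and 3.35 CPM in Abl.2, so both alleles fell. The Abl.2 values of H2-Aa rest on 257 counts in all, and with either Abl.2 library alone the difference (-0.355 without replicate 1, -0.483 without replicate 2) was not called.

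Of the editors, H2-Ob leaned to 129S1 to the same degree in both clones, with AI of 0.838 and 0.850 in Abl.1 and 0.859 and 0.844 in Abl.2. H2-Oa did not, with 0.435 and 0.594 in Abl.1 and 0.952 and 0.933 in Abl.2, a pooled difference of 0.437 (95% interval 0.329 to 0.545), not called without either Abl.2 library (0.428 and 0.447) or without Abl.1 replicate 1 (0.348). The 129S1 allele of H2-Oa had medians of 9.52 and 3.01 CPM in Abl.1 and Abl.2, and the Cast/Ei allele 9.74 and 0.182 CPM. H2-DMb1 was biased to 129S1 in all kidney experiments (0.685, 0.703 and 0.735) and in Abl.1 (0.750). H2-DMb2 moved from 0.376 in Experiment 2 to 0.651 and 0.636 in the clones (differences 0.275, 95% interval 0.168 to 0.383, and 0.260, 0.174 to 0.347). Cd74, biased to Cast/Ei in Abl.1 at 0.379, differed from Experiment 2 by -0.099 (95% interval -0.141 to -0.058), a call that was lost with Experiment 1 or 3 in place of Experiment 2 (-0.088 and -0.104) and without either Abl.1 library (-0.081 and -0.122) or Experiment 2 replicate 3, 4 or 6 (-0.095, -0.098 and -0.096). The H2-DMb2 calls were lost in both clones against Experiments 1 and 3 (0.137 to 0.223), in Abl.1 without Abl.1 replicate 2 (0.176) or Experiment 2 replicate 4 (0.250), and in Abl.2 without Abl.2 replicate 2 (0.222).

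**Figure D5:**
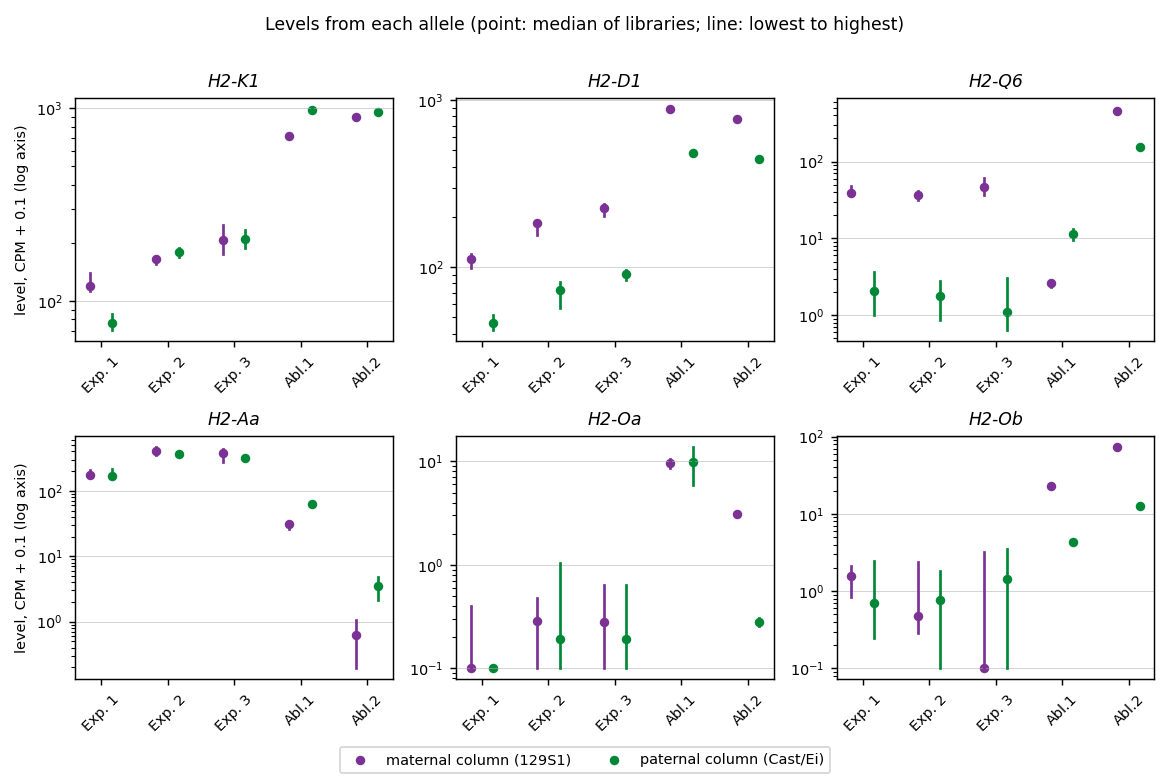
Level of each allele for 6 members (CPM + 0.1, log axis; points are medians of libraries, lines run from the lowest to the highest; purple is 129S1, green Cast/Ei). The alleles of H2-K1 stay close to each other in all groups but Experiment 1, both alleles of H2-Aa fall in the clones, the order of the H2-Q6 alleles is turned in Abl.1 (2.498 against 11.3 CPM), and the Cast/Ei allele of H2-Oa is low in Abl.2 (0.182 CPM).

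Genes of the light chain and of peptide supply stayed nearer to 0.5. B2m had pooled AI of 0.537 in Experiment 2, 0.508 in Abl.1 and 0.490 in Abl.2, where the difference of -0.047 passed the test (95% interval -0.061 to -0.032) with the first run and not with the second (-0.020), nor against Experiment 1 (-0.034). Psmb8 was biased to opposite sides in the clones, 0.532 in Abl.1 and 0.467 in Abl.2, with both libraries of each clone on its side of 0.5 (difference -0.065, 95% interval -0.081 to -0.049). Tap1 was biased to 129S1 in both clones, at 0.593 and 0.559. No bias was called in any group for Tap2, Tapbp, Psmb9, Psmb10, Ciita or Nlrc5.

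By the test of the difference itself, AI changed in 9 of 26 members for Abl.1 against Experiment 2 (all genes 16.9%), 2 of them higher and 7 lower, and in 9 of 25 for Abl.2 (all genes 23.3%), 4 higher and 5 lower. Between the clones it changed in 7 of 28 (all genes 19.7%), 6 higher in Abl.2 and 1, Psmb8, lower. In all, 8 of 18 testable H2- members changed in Abl.1 and 8 of 17 in Abl.2, against 6 of 63 and 6 of 65 other genes of the interval. Between kidney Experiments 1 and 2 the changed members were H2-K1 and H2-Q4, 2 of 27 (all genes 3.74%). Between Experiments 3 and 2 none of 27 changed by the corrected test (all genes 0.384%), 3 had an unadjusted p under 0.05, and 2 passed without the QCC correction.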

How the data were processed

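Poly-A RNA-seq libraries were sequenced on HiSeq machines. The authors aligned reads with STAR 2.5.4a to pseudogenomes of both strains, built on GRCm38 by inserting SNPs without indels, kept unique alignments, subsampled libraries of an experiment to the same size, took allele counts at each SNP position from samtools mpileup, and summed these over exons not shared between genes. The deposited values used here are whole-number counts per gene and allele. A read over several SNPs can count at each, and paired reads of 150 bases pass over more of them than single reads of 75 bases. Deposited AI tables were not used. GEO's labels gave every group.

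The members and lists were chosen with earlier results of these data known. Every member with 50 or more pooled counts in at least 1 group was named. Abundance (129S1 plus Cast/Ei counts) was tested in edgeR 4.0.16 (quasi-likelihood, TMM, Benjamini-Hochberg) with R 4.3.3, in 1 fit of Experiment 2 and both clones and 1 fit of the kidney libraries, on genes with 50 or more pooled counts in a group. Levels were scaled over all 24 libraries together. AI used two-sided proportional tests on pooled counts divided by the square of QCC, recomputed here from pairs of replicates (1 pair in each clone), with Bonferroni correction over all genes; intervals are 95%, and like the limits from counts of 0 they cover counting error and, where QCC is used, library noise. Alternatives were DESeq2 1.42.0, other scalings and filters, no fold requirement, uncorrected counts, Benjamini-Hochberg, thinning, the second Abl.2 run, other kidney groups, a replicate block and each library left out. Scripts were tested on simulated data. Shared 75-base and 150-base windows came from GENCODE vM21, and promoters from RefSeq (GRCm38.p6, 38 of 54 members matched). Gene positions are those of GRCm38. Depth was 6138693 to 6702351 counts in a kidney library and 19213150 to 22410835 in a clone library, and genes near 50 counts have wide AI intervals.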

Additional observations from a re-analysis of the deposited data

Results flagged for a closer look

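Among 166 level and AI values tested in the 3 kidney groups of 6 libraries, 8 had 1 library far from the other 5 by Dixon's criterion, which chance meets in about 1 group in 20. Levels did so for Ciita in Experiment 1 replicate 2 (5.07 CPM, others 2.89 to 3.45), H2-DMb1 in Experiment 2 replicate 1 (164 CPM, others 135 to 144), H2-Aa in Experiment 3 replicate 1 (573 CPM, others 688 to 733) and H2-DMa in Experiment 3 replicate 2 (35.02 CPM, others 16.8 to 23.5). AI did so for H2-Ab1 in Experiment 1 replicate 2 (0.4998, others 0.446 to 0.462), H2-Q10 in Experiment 2 replicate 6 (0.222, others 0 to 0.062), H2-M3 in Experiment 3 replicate 4 (0.818, others 0.094 to 0.275) and H2-Q10 in Experiment 3 replicate 2 (0.05, others 0). All of these are aliquots of 1 RNA, and the H2-Q10 and H2-M3 values rest on few counts per library.

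Members biased to opposite sides of 0.5 in a pair of groups, with the difference itself past the corrected test, were H2-Aa (-0.197 in Abl.1 and -0.390 in Abl.2 against Experiment 2), H2-Q6 (-0.777 in Abl.1 against Experiment 2, and 0.568 in Abl.2 against Abl.1) and Psmb8 (-0.065 in Abl.2 against Abl.1). The H2-Aa difference in Abl.2 was not called with either of its libraries alone, and 21.1% of 75-base and 5.99% of 150-base H2-Q6 windows are shared with other genes. The part of read sharing was not tested.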

How the results depend on the processing

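Without the 2-fold requirement, 23 members passed for abundance in Experiment 1 against 2 and 7 in Experiment 3 against 2. For AI, uncorrected counts gave 14 changed members in Abl.1 against Experiment 2, 14 between the clones, 4 in Experiment 1 against 2 and 2 in Experiment 3 against 2, while Benjamini-Hochberg gave 14, 11, 4 and 0. Uncorrected counts gave 17 biased members in Experiment 1, 17 in Experiment 3 and 25 in Abl.2. Benjamini-Hochberg gave 17, 15 and 25 there, with 19 in Experiment 2. edgeR's allele test without a block gave 16 changed members in Abl.1 (all genes 3048 of 8926) and 1 in Experiment 3 against 2 (all genes 55 of 11715). For uncorrected counts, Benjamini-Hochberg and no 2-fold requirement, calls over all genes were not counted. Those numbers therefore describe the setting and not the members.

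With kidney Experiment 1 in place of Experiment 2, the direction turned for abundance in Abl.1 of H2-DMa (1.12), B2m (0.14), H2-Ke6 (1.14), H2-Q1 (2.09) and H2-DMb1 (0.45), in Abl.2 of H2-T24 (-1.56), and for AI of H2-Q4 in Abl.1 (-0.096) and H2-K1 in Abl.2 (-0.127). The cause was not tested. Of 7164 values of single members under the alternatives, 6865 kept direction and side of the threshold, 188 passed it newly, 103 lost it and 8 turned.

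Leaving out 1 library gave 23 to 25 called members in Abl.1 against Experiment 2, 27 to 29 in Abl.2, 19 to 24 between the clones, 14 to 17 in Experiment 1 and 0 to 1 in Experiment 3 against Experiment 2 (1 without Experiment 3 replicate 4, H2-T24). For AI the ranges were 6 to 9, 6 to 9, 6 to 7, 2 to 3 and 0 to 0 in the same order. Biased members numbered 9 to 10, 10 to 12 and 8 to 9 in Experiments 1 to 3, 9 to 11 in Abl.1 and 9 to 9 in Abl.2. Calls over all genes were not counted with a library left out, so these ranges describe the setting and not the members.

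Replicates of different groups share only a number: deviations of same-numbered libraries correlated at -0.035 to 0.039 between kidney and other groups, and at 0.195 between the clones, with 2 pairs. With the replicate number as a block, edgeR called 24, 26, 22, 15 and 0 members for abundance in the order above. Calls over all genes were not counted for abundance with the block, so these numbers describe the setting and not the members. edgeR's allele test called 11, 9, 9, 3 and 0 members with the block, against 16, 13, 9, 3 and 1 without. Over all genes tested (8926, 8742, 9564, 11455 and 11715), the allele test called 2314, 2754, 2483, 968 and 26 with the block. Without the block it called 3048, 3471, 2612, 1052 and 55.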
